A study of Mus musculus with 4 samples.

Results

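The proteasome genes of this report are those whose single platform gene symbol starts with Psma, Psmb, Psmc, Psmd, Psme, Psmf or Psmg followed by a digit. The rule found 46 genes on 58 probe sets, out of 8251 genes with 1 symbol on the array. Their transcripts were measured in hippocampal area CA1 of young male C57BL/6J mice, in 4 total RNA samples that each went on 1 Affymetrix array. All 4 were controls, handled by the experimenter and otherwise untreated. They differ by the hour of RNA extraction, 1, 2, 4 or 6 h, counted from the final shock of experimental mice that are not analysed here. The number of animals pooled in a sample is unstated. As each hour has 1 array, the hours were compared without replicates, and anything else that varied between the arrays cannot be told apart from the hour.

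The proteasome is the protease that degrades ubiquitin-tagged proteins. Its barrel-shaped 20S core holds the proteolytic sites inside stacked rings of alpha and beta subunits, and the 19S cap binds, unfolds and feeds in the substrate. In hippocampal neurons, protein degradation by the proteasome is known to take part in synaptic plasticity and in the storage and updating of memory.

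Each gene was read from its brightest probe set, and a signal is the authors' scaled probe set intensity. Signals of single genes are compared within a probe set only, because binding strength differs from one probe set to the next. The summed signals of marker lists add up several probe sets, and the brightest weigh most in them. Of the 46 genes, 43 passed the filter on dim probe sets, a geometric mean signal of at least 116 over the 4 arrays. Psmd2, Psmb9 and Psmc3ip did not. By role, those tested were 7 alpha and 7 beta subunits of the 20S core, 2 of the 3 immunoproteasome subunits, 6 ATPases, 2 of the 3 other subunits of the 19S base and 8 subunits of the 19S lid. The remaining ones were 3 chaperones of base assembly, 4 chaperones of core assembly, 3 activators and 1 of 2 interacting proteins that carry a subunit's symbol with a suffix.

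The tissue markers of the label were present, and 4 of 4 neuron markers and 4 of 4 CA1 pyramidal markers on the array were tested. Snap25, a synaptic fusion protein of neurons, had signals of 18421, 17938, 19821 and 19356 at 1, 2, 4 and 6 h, and Wfs1, a marker of CA1 pyramidal cells, had 2293, 1877, 2484 and 2508. The other 3 neuron markers were higher at 2 h than at 1 h, the synaptic calcium sensor Syt1 most, with 722, 3671, 1024 and 1016. The median log2 difference of the 4 neuron markers was 0.59 at 2 h, and their summed signal was 31168, 40012, 31961 and 33669.5. Of the 4 CA1 pyramidal markers, 2 were higher and 2 lower at 2 h, and they summed to 7121, 6584, 6718.5 and 7586. Of 6 interneuron markers, 2 were higher and 4 lower at 2 h, with a median of -0.14. They summed to 26660, 22629, 26775 and 27002. Of 6 astrocyte markers, 4 were higher and 2 lower, and the 3 endothelial markers tested were all lower. Of the choroid plexus markers tested, 1 was higher and 1 lower. The higher one, Ttr, had 222, 892, 107.5 and 356. The 2 h array stood apart in RNA quality controls. Its 3′ over 5′ signal ratio was 1.08 for Gapdh, against 3.62 to 4.10 on the other arrays, and 1.72 for beta-actin, against 2.27 to 2.93. The part of these marker differences and of RNA quality in the 2 h values below was not tested. In a bulk sample, fewer cells of a type and less RNA per cell cannot be told apart.

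Proteasome transcripts stayed close to one level over the 4 arrays. The median range, highest over lowest signal, was 1.41-fold over the 43 genes tested and 1.54-fold over all 7237 probe sets tested. A range under 1.5-fold was found for 26 of the 43 genes, 60.5%, and for 46.4% of all probe sets tested. Within 2-fold were 38 of 43, 88.4%, and 77.4% of all. Brightness moves with this. When the probe sets tested were cut into 3 groups of equal size by mean signal, 28 of the 43 genes lay in the bright group. Of these 28, 19 (67.9%) stayed under 1.5-fold, and so did 68.6% of all probe sets of the bright group. Over the 1, 4 and 6 h arrays alone the median range was 1.24-fold for the 43 genes and 1.34-fold for all probe sets tested. In the bright group it was 1.23-fold for the proteasome genes and 1.21-fold for all, and 28 of 28 proteasome genes stayed under 1.5-fold there, as did 90.1% of all. For 3 of the 43 genes, and for 6.44% of all probe sets tested, 1 array lay far from the other 3 by Dixon's critical value for 4 values.

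**Figure D1:**
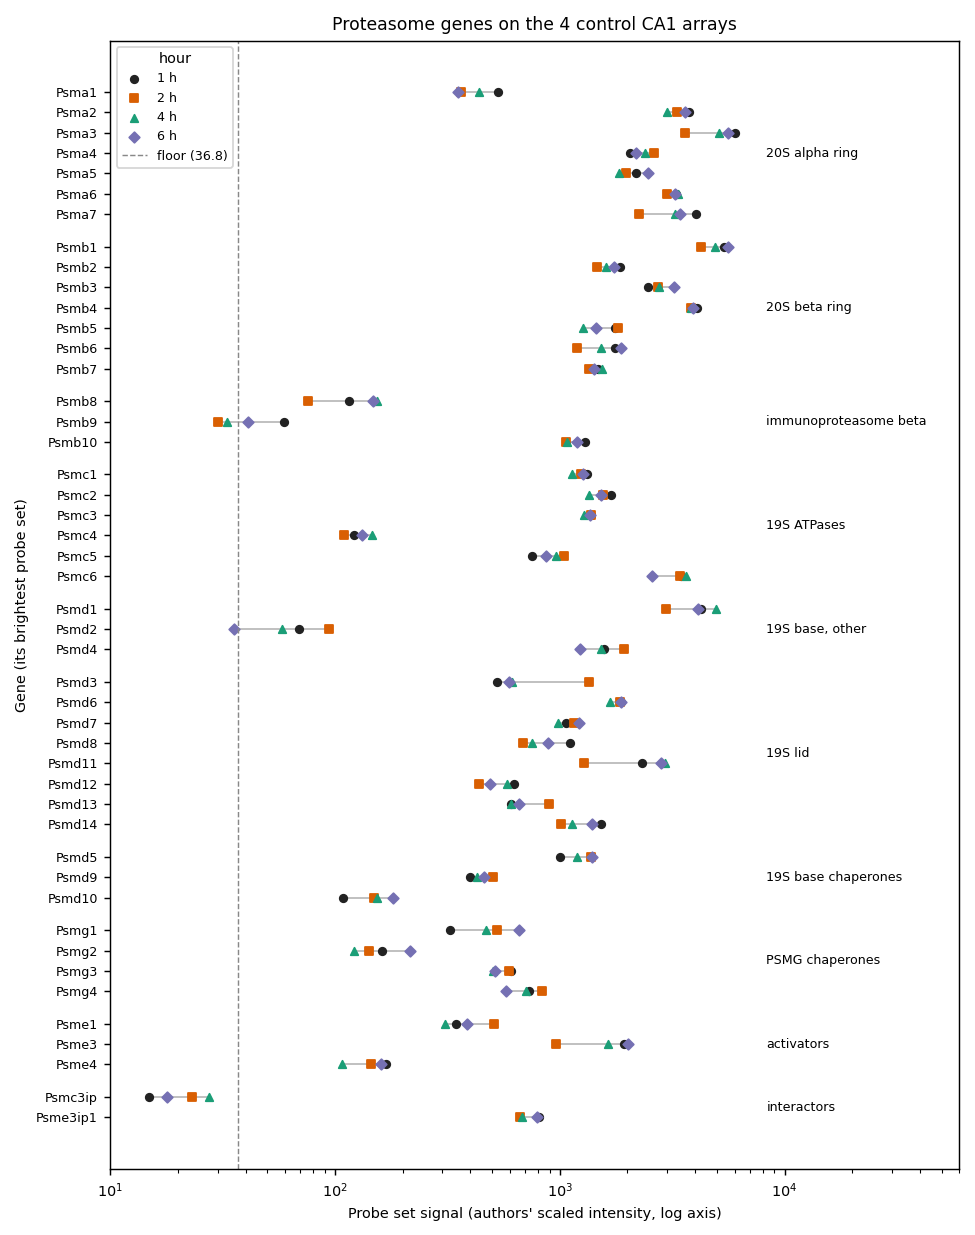
Signal of each of the 46 genes (vertical axis, 1 row per gene, grouped by role) on a log axis of the authors' scaled intensity. Each row has 1 point per hour, and the grey line spans the 4 values. The dashed line is the floor of 36.8. Psmb9, Psmd2 and Psmc3ip reach below it, and Psmd3, Psmd11 and Psme3 have the longest spans among the genes tested.

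No trend over the hours passed the test. By limma's slope of log2 signal per hour over the 4 arrays, 0 of 43 genes had an adjusted p under 0.05, and 0 had an unadjusted p under 0.05. Over all 7237 probe sets, 0 (0%) were called and 196 (2.71%) had an unadjusted p under 0.05. The smallest adjusted p was 0.9996 among the proteasome genes and among all probe sets. Slopes ran from -0.094 to 0.16 log2 per hour, with 23 upward (53.5%) and 20 downward, where 53.2% of all probe sets had an upward slope. Their median was 0.0036 against 0.0054 over all probe sets tested, and it was 0.029, -0.0026, 0.0041 and -0.035 without the 1, 2, 4 and 6 h array. Leaving out the 2 h array gave 32 calls over all probe sets and 0 among the proteasome genes.

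The slope farthest upward was that of Psmg1, a chaperone of the alpha ring, with 0.16 ± 0.077 (SE, 4 arrays) and an unadjusted p of 0.0781 by limma. Next came Psmd11, a lid subunit, with 0.14 ± 0.092, and Psmb8, an immunoproteasome subunit, with 0.14 ± 0.15. The slopes farthest downward were -0.094 ± 0.059 for the ubiquitin receptor Psmd4, -0.081 ± 0.063 for the chaperone Psmg4 and -0.080 ± 0.077 for the alpha subunit Psma1 (SE, 4 arrays each). All 6 of these have an adjusted p of 0.9996 by limma.

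Against the 1 h array, few proteasome genes lay 2-fold apart. At 2 h, 1 gene was at least 2-fold higher, where 6.92% of all probe sets tested were, and 1 was at least 2-fold lower, where 3.29% were. At 4 h there was no such gene among the 43, with 3.69% of probe sets higher and 2.51% lower. At 6 h, 1 was at least 2-fold higher (3.74% of probe sets) and 0 were at least 2-fold lower (2.79%). The 3 genes were Psmd3 and Psme3 at 2 h and Psmg1 at 6 h. Psme3 and Psmg1 lay almost at the threshold, with log2 differences of -1.01 and 1.01. Such differences were also rare among bright probe sets at large. In the bright group at 2 h, 0 of 28 proteasome genes were higher and 1 lower, where 72 and 47 of its 2412 probe sets were. At 4 h and at 6 h, 0 of the 28 were higher or lower. Of the 2412, 5 were higher and 9 lower at 4 h, and 4 and 4 at 6 h.

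Most of the proteasome genes tested were lower at 2 h and at 4 h than at 1 h, by small amounts. At 2 h, 28 of 43 genes (65.1%) were lower, where 50.3% of all probe sets tested were. The median log2 difference was -0.13, against -0.0032 over all probe sets. At 4 h, 27 of 43 (62.8%) were lower, where 48.7% of all were, with a median of -0.12 against 0.016. Against the mean of the other 3 arrays, the medians shrank to -0.031 at 2 h and -0.054 at 4 h. The 4 h median was -0.050 after averaging every probe set of each gene. At 6 h, 23 of 43 (53.5%) were lower, where 47.5% of all were, with a median of -0.017 against 0.021. The 6 h median was above 0 under 4 of 11 alternatives, among them 0.073 against the mean of the other 3 arrays. In the bright group, 20 of 28 proteasome genes were lower at 2 h (71.4%), where 58.6% of its probe sets were, and their median was -0.13 against -0.098. At 4 h, 19 of the 28 were lower (67.9%), where 53.4% of the bright group were, with a median of -0.14 against -0.026. At 6 h, 17 were lower (60.7%), where 54.4% were, with a median of -0.046 against -0.025. The 2 h array gave the lowest of the 4 values for 17 of 43 genes, where it did so for 32.0% of all probe sets, and for 13 of the 28 bright ones, where it did so for 40.8% of the bright group. The 1 h array gave the highest for 15, where it did so for 23.1%. In the bright group it did so for 10 of the 28 proteasome genes and for 723 of all 2412 probe sets.

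Over the 4 arrays, lid genes spread somewhat more widely than those of the 20S core and the ATPases, which were alike. The median range was 1.31-fold over the 14 core genes, 1.29-fold over the 6 ATPase genes and 1.5-fold over the 8 lid genes. All 6 ATPase genes and 10 of 14 core genes stayed under 1.5-fold, against 4 of 8 lid genes, where 46.4% of all probe sets did. Brightness differed too, as 13 of 14 core, 5 of 6 ATPase and 5 of 8 lid genes lay in the bright group, and 3 lid genes lay in the middle group. A range under 1.5-fold was found for 68.6% of all probe sets of the bright group and for 47.2% of those of the middle group. Psmd11, in the lid, ranged over 2.31-fold on the brightest probe set, used here, and over 1.28 and 2.02-fold on its second and dimmest. Over the 1, 4 and 6 h arrays the medians of core, ATPases and lid were 1.20, 1.23 and 1.25-fold. These are descriptions of subunits of one complex, and the difference between the classes was not tested.

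At 2 h against 1 h, the median log2 difference was -0.16 over the core, -0.048 over the ATPases and -0.26 over the lid. Lower were 11 of 14, 4 of 6 and 5 of 8 genes, where 50.3% of all probe sets and 58.6% of the bright group were. The lid median was -0.064 after averaging every probe set of each gene and -0.015 with probe sets of shared or incomplete probes left out. The ATPase median turned to 0.0023 after quantile normalization. At 4 h the medians were -0.21 for the core (-0.023 against the mean of the other 3 arrays), -0.013 for the ATPases (0.018 after quantile normalization) and -0.11 for the lid. At 6 h they were -0.054 (0.069 with probe sets of shared or incomplete probes left out), -0.033 (0.030 after averaging) and 0.065. Lower at 6 h were 9 of 14, 4 of 6 and 3 of 8 genes, where 47.5% of all probe sets and 54.4% of the bright group were.

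**Figure D2:**
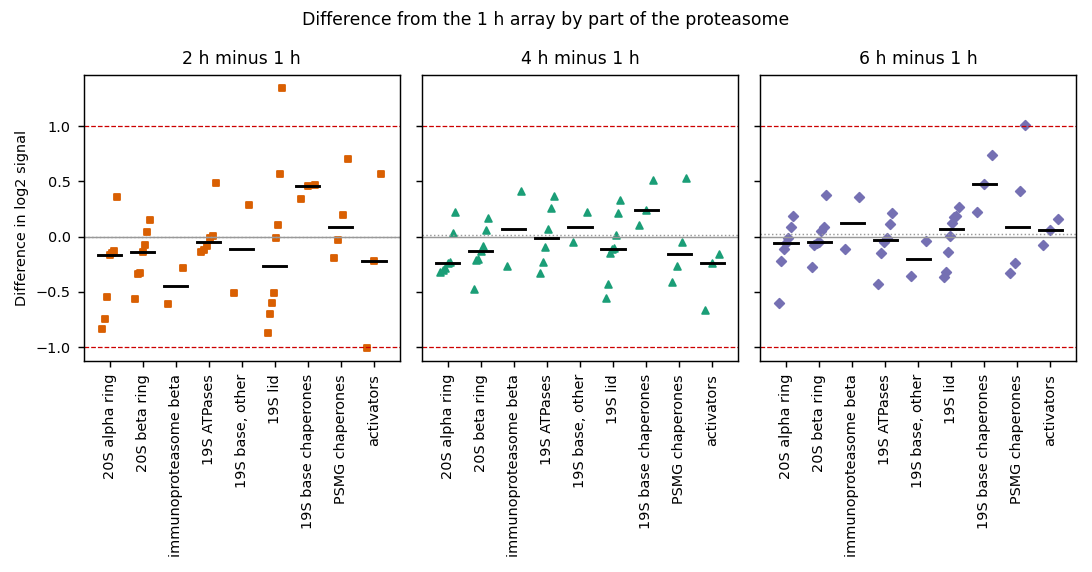
Difference in log2 signal from the 1 h array at 2, 4 and 6 h (1 panel each) for the genes tested apart from Psme3ip1, by part of the proteasome. Points are genes, black bars are medians, red dashed lines mark 2-fold and the dotted grey line is the median of all probe sets tested. The lid spans from -0.87 to 1.35 at 2 h, where the ATPases span from -0.14 to 0.48.

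The alpha subunits form the outer rings of the core, whose gate opens to admit substrate. Of the 7 alpha genes, 6 were lower at 2 h than at 1 h, 5 at 4 h and 5 at 6 h. In the bright group, where 6 of the 7 lie, 58.6%, 53.4% and 54.4% of all probe sets were lower at 2, 4 and 6 h. Psma3, the brightest, had signals of 6031, 3607, 5135 and 5586 at 1, 2, 4 and 6 h. Psma7 had 4018, 2246, 3267 and 3437. In both, the 2 h array was the lowest and the 1 h array the highest, with log2 differences of -0.74 and -0.84 at 2 h. Psma1 had 533, 365, 439 and 351, so that its 6 h and 2 h values were the low ones. Psma6 was steady, with 3279, 2997, 3361 and 3240, a range of 1.12-fold. Psma4 was the one higher at 2 h, with 2635 at 2 h against 2050.5 at 1 h, and Psma2 and Psma5 ranged over 1.25 and 1.34-fold.

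The beta subunits form the inner rings, and Psmb5, Psmb6 and Psmb7 carry the active sites. All 7 beta genes were in the bright group and stayed within 2-fold, as did 92.9% of all probe sets of that group. Psmb4 had the narrowest range of all proteasome genes tested, 1.06-fold, with signals of 4069, 3848, 3828 and 3900.3 at 1, 2, 4 and 6 h. It is 1 of 8 genes read from a probe set whose name marks probes that may match other transcripts or are incomplete, like Psma3, Psmb5, Psmb7, Psmc3, Psmd9, Psmd12 and Psmg3. Psmb1, the brightest, had 5389.8, 4251, 4920.0 and 5576. Psmb2 and Psmb3 ranged over 1.26 and 1.30-fold.

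The 3 catalytic genes did not share a profile. Psmb5, the chymotrypsin-like site, had signals of 1757, 1813, 1262 and 1449.6 at 1, 2, 4 and 6 h. Its 4 h value was the lowest and its 2 h value the highest. Psmb6, which cleaves after acidic residues, had 1762.5, 1194, 1522 and 1874, and here the 2 h value was the lowest. Psmb7, the trypsin-like site, had 1479, 1345, 1539 and 1425, a range of 1.14-fold. At 2 h against 1 h the log2 differences were 0.046 for Psmb5, -0.56 for Psmb6 and -0.14 for Psmb7.

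Proteasome genes are known as targets of the transcription factor Nfe2l1, which binds antioxidant response elements. The 250 bases before the start of the catalytic genes Psmb5 and Psmb6 are shown because both hold 1 match to TGACNNNGC, a core of that element. A link between these matches and the signals was not tested. Sequences are those of RefSeq on build GRCm38.p6, 5′ to 3′, with motif matches on either strand in capitals.
Psmb5 promoter (chr14:54617996-54618245, - strand): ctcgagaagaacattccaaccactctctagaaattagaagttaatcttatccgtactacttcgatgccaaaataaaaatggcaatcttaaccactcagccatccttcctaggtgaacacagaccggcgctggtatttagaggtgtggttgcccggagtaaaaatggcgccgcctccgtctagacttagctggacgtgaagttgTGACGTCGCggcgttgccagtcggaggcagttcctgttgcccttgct
Psmb6 promoter (chr11:70525107-70525356, + strand): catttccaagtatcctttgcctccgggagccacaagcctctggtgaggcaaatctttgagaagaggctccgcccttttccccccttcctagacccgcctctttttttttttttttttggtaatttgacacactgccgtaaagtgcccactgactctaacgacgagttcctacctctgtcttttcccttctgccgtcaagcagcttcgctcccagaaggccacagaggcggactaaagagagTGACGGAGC
This core was found in 5 of 42 such windows, 11.9%, over 39 of the 46 genes that matched a RefSeq promoter, and in 10.2% of all 32851 windows. TGANTCAGC, another element for factors of the same family, which can overlap with it, was in 0 of 42 windows and in 1.02% of all. A match is a run of letters and does not show binding. Nfe2l1 itself had signals of 1969, 2745, 2085 and 1873.5 at 1, 2, 4 and 6 h, highest at 2 h.

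Immune cytokines induce Psmb8, Psmb9 and Psmb10, which replace the catalytic subunits and favour peptides for MHC class I. Psmb10 had signals of 1292, 1063, 1072.5 and 1197 at 1, 2, 4 and 6 h, a range of 1.22-fold. Psmb8 had 115, 75.7, 153 and 148, with the 2 h array lowest and a mean just above the filter. Psmb9 had 59.2, 30.1, 33.2 and 40.9, with its 2 and 4 h values under the floor, and was not tested. Psmb8 and Psmb9 were thus dim on all 4 arrays, and values under the floor have no order.

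Among genes of MHC class I antigen processing, 8 of 10 on the array were tested, and 5 were higher and 3 lower at 2 h than at 1 h, with a median log2 difference of 0.11, where 50.3% of all probe sets were lower. The median was -0.075 with probe sets of shared or incomplete probes left out. At 4 h, 3 were higher and 5 lower (48.7% of all were lower), with a median of -0.096, and at 6 h 4 were higher and 4 lower. By limma, 0 of the 8 had a called slope. The MHC class I light chain B2m had 1617, 796, 798.5 and 1238 at 1, 2, 4 and 6 h. The peptide transporter Tap1 had 265, 146, 270.4 and 209, and Tapbp, which loads peptides, had 268, 453.5, 353 and 326. Irf1, an interferon-responsive regulator, had 135, 160.1, 52.0 and 186, and Pdia3, a chaperone of the peptide-loading complex, had 244.0, 347, 448 and 324. These 2 lay farthest from 1 h at 6 h, as B2m and Tap1 did at 2 h. The summed signal of 10 microglial markers was 9316, 9392, 8155 and 8957 over the same hours, and 8 of the 10 were tested. Of these 8, 5 were higher and 3 lower at 2 h than at 1 h, with a median log2 difference of 0.14. At 4 h, 1 was higher and 7 lower, with a median of -0.19, and at 6 h 2 were higher and 6 lower, with a median of -0.12. Fcer1g was under the floor on all 4 arrays. The part of microglial content in these values was not tested.

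The ATPases Psmc1 to Psmc6 form the ring that unfolds substrates and opens the core. Their ranges lay between 1.07 and 1.41-fold. Psmc3 was the steadiest on its brightest probe set, with signals of 1376, 1382, 1287 and 1364 at 1, 2, 4 and 6 h. Its dimmer probe sets ranged more widely. One had 404, 743, 439.5 and 503, highest at 2 h at 0.88 log2 above 1 h, and the other had 403, 349, 389 and 459. Psmc6, the brightest, had 3469, 3440.1, 3644 and 2581, so that 3 arrays lay together and the 6 h array below them. Psmc5, which CaM kinase II is known to phosphorylate in neurons, had 749, 1046, 966 and 868, lowest at 1 h. Psmc1 and Psmc2 ranged over 1.17 and 1.25-fold with the 4 h array lowest, and Psmc4, the dim one, had 122, 110.1, 146 and 131.5.

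In the rest of the 19S base, Psmd1, a scaffold, had signals of 4231, 2966, 4950.0 and 4119 at 1, 2, 4 and 6 h, lowest at 2 h. Psmd4, a receptor for ubiquitin chains, had the other order at 2 h, with 1575, 1921, 1525 and 1227. Psmd2, the second scaffold, was not tested. It had 69.2, 93.9, 58.3 and 35.4, the last under the floor.

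The lid holds the deubiquitinase Psmd14, its partner Psmd7 and 6 scaffold subunits. Psmd3, a scaffold subunit, was the widest of all proteasome genes tested, as its signals were 528, 1343, 612 and 597 at 1, 2, 4 and 6 h. The values at 1, 4 and 6 h lay together, and the 2 h array lay 2.55-fold above 1 h. Psmd11, a scaffold subunit that protein kinase A can phosphorylate, had 2330.3, 1275, 2940.3 and 2812, and its 2 h value was the lowest. Both of these wide ranges came from the 2 h array, in opposite directions.

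Psmd14 had 1527, 1007, 1131 and 1386.5 at 1, 2, 4 and 6 h, lowest at 2 h, whereas Psmd7 stayed within 1.24-fold. Psmd6 was among the 3 steadiest proteasome genes tested, with 1865, 1846, 1681 and 1875. Psmd13 had 604, 894, 609 and 658, highest at 2 h like Psmd3. Psmd8 and Psmd12 had their lowest value at 2 h and ranged over 1.62 and 1.43-fold.

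**Figure D3:**
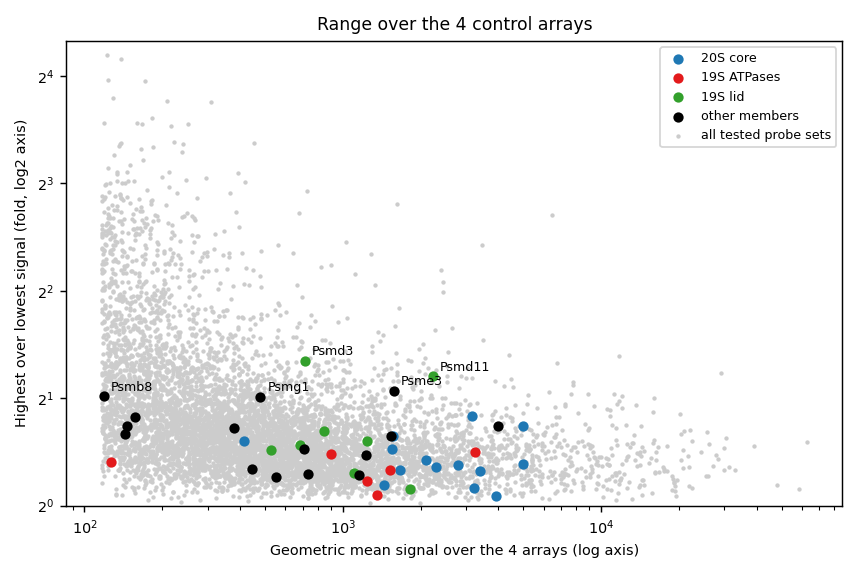
Highest over lowest signal over the 4 arrays (vertical axis, fold on a log2 scale) against the geometric mean signal (horizontal log axis) for the proteasome genes tested, coloured by class, and for all 7237 probe sets tested in grey. Psmd3 at 2.55-fold, Psmd11 at 2.31 and Psme3 at 2.10 stand highest among the proteasome genes, and dim probe sets spread more than bright ones.

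The 3 chaperones of base assembly lay above their 1 h values at each later hour. Psmd5, Psmd9 and Psmd10, which hold the ATPases during assembly of the base, each had their lowest value at 1 h. Their median log2 difference from 1 h was 0.46 at 2 h, 0.24 at 4 h and 0.47 at 6 h, and 3 of 3 were higher at each hour. Of all probe sets tested, 25.1% had their lowest value at 1 h. Psmd5 had signals of 1003, 1380.5, 1187 and 1391 at 1, 2, 4 and 6 h, and Psmd10, also known as the oncoprotein gankyrin, had 108, 149.7, 154 and 180.1. Psmd9 ranged over 1.27-fold. The 3 genes are few, were not tested as a group, and 0 were called by limma.

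Psmg1 to Psmg4 assemble the alpha ring. Psmg1 had signals of 325, 526, 469.5 and 655 at 1, 2, 4 and 6 h, and its 6 h value was 2.02-fold that at 1 h. Its partner Psmg2 was dimmer, with 162, 142, 122 and 216. Both were highest at 6 h, but their 2 h and 4 h values lay on opposite sides of 1 h. Psmg4 had 729, 836, 704 and 579, and Psmg3 ranged over 1.20-fold.

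Activators cap the core in place of the 19S cap. Psme3, the nuclear activator, had signals of 1931, 959, 1640.4 and 2014 at 1, 2, 4 and 6 h. The 2 h array was the lowest, at a log2 difference of -1.01 from 1 h, and the other 3 arrays lay within 1.23-fold. Psme1, an interferon-inducible activator subunit, had 344.5, 511, 309 and 384.5, highest at 2 h. Psme4 was dim, with 169, 145, 107 and 160.4. Among the 2 interacting proteins, Psme3ip1 ranged over 1.22-fold, and Psmc3ip, a factor of meiotic recombination, was under the floor on all 4 arrays.

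Several genes had more than 1 probe set, and those of 4 of these 8 genes lay on opposite sides of 1 h, over 0.5 log2 apart, at some hour. Psmd11 had 3 tested probe sets. The brightest was lower at 2 h than at 1 h (1275 against 2330.3), the second also (455 against 583), and the dimmest was higher (336 against 181). The second probe set of Psmb4 had 212 at 2 h against 104 at 1 h, where the brightest differed by -0.081 log2. That of Psmb5 had 334, 374, 452 and 396 at 1, 2, 4 and 6 h, highest at the hour where the brightest was lowest. That of Psmg3 had 262.5, 185, 74.0 and 374. Psmc3, Psmc5, Psmb1 and Psme1 had second probe sets that did not part by this rule.

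**Figure D4:**
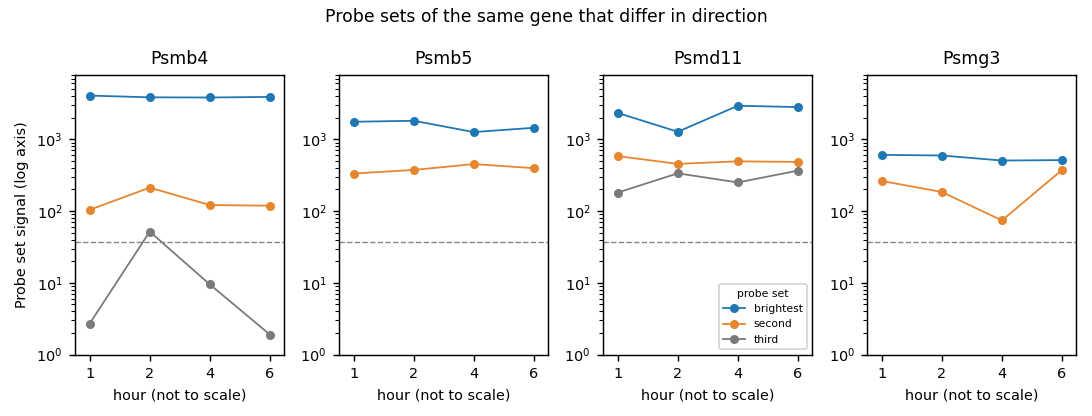
Signals (vertical log axis) at 1, 2, 4 and 6 h (horizontal axis) of all probe sets of the 4 genes whose probe sets differed in direction, ordered from brightest to dimmest. The dashed line is the floor of 36.8. The dimmest probe set of Psmb4 is under the floor on 3 of the 4 arrays.

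Genes that work with the proteasome but lie outside the symbol rule were listed separately, and 15 of them were on the array and tested. At 2 h, 5 were higher and 10 lower than at 1 h (50.3% of all probe sets were lower), with a median log2 difference of -0.18. At 4 h, 8 were higher and 7 lower (48.7% of all were lower), with a median of 0.0083 that was -0.080 with probe sets of shared or incomplete probes left out. At 6 h, 3 were higher and 12 lower (47.5% of all were lower), with a median of -0.16. By limma, 0 of 15 were called. The widest at 2 h were Txnl1, a thioredoxin-like protein of the 19S cap, with 487 at 2 h against 1135 at 1 h, and Ufd1, a partner of the unfoldase Vcp, with 1030 at 2 h against 561 at 1 h. At 6 h they were Ecpas, a proteasome adaptor, with 399 at 6 h against 552.5 at 1 h, and Pomp, which matures the core, with 2258, 1989, 1740.0 and 1649 at 1, 2, 4 and 6 h. Akirin2, which brings proteasomes into the nucleus, had 2951 at 6 h against 2227 at 1 h, and Sem1, the small lid subunit, stayed between 2987 and 3454.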

How the data were processed

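Total RNA of CA1 was measured on 1 Affymetrix array per hour. The deposited values are linear intensities, 1 for each probe set on each array. The software behind them is not stated in the labels. The 2% trimmed mean was 500.3 on each of the 4 arrays, which fits a scaling of every array to a common mean, and no pair of arrays was identical. The values were used as deposited. A floor was set at the pooled 20th percentile, 36.8, before taking log2. Tested were probe sets, the 66 manufacturer controls aside, whose mean log2 was at or above the pooled 40th percentile (116).

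Slopes were fitted with limma 3.58.1 in R 4.3.3 over all 7237 probe sets, with a variance prior that follows the mean. The 4 arrays leave 2 residual degrees of freedom. Tests are two-sided, adjusted by Benjamini-Hochberg and read at 0.05. Python 3.11.15 and pandas 2.3.3 gave the rest. Symbols come from the platform's annotation, and the IDs of all 46 genes matched RefSeq. The number of arrays limits the precision.

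Each gene was named. Values on all arrays were given by rule: 2-fold from 1 h, the 3 widest, 3 steadiest and 3 steepest each way, the brightest of each class, and catalytic, immune or disagreeing genes. Of the other lists, genes with the largest differences were named. Psma7, Psmd13, Psmd14, Psmc4, Psmc5, Psmd2, Psmd5, Psmd10, Psmg2, Psma6, Psme1, Psme4, Tapbp, Akirin2, Nfe2l1, Sem1, Syt1, Ttr, the promoters and their motifs were picked with values in view. The members and lists were chosen with earlier results of these data known. Alternatives covered normalization, floor, filter, probe sets, time scale, variance prior, threshold, reference and leaving out each array.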

Additional observations from a re-analysis of the deposited data

Results flagged for a closer look

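The profiles of 3 genes over the control arrays had 1 array far from the other 3 by Dixon's critical value, which sets the gap to the nearest array against the whole range. Chance puts about 1 in 20 groups of 4 there. This was so for 3 of 43 proteasome genes, where it was so for 6.44% of all 7237 probe sets tested. Psmd3 stood high on the 2 h array (1343, against 528, 612 and 597 at 1, 4 and 6 h), with a gap of 0.841 of its range. Psmc6 stood low on the 6 h array (2581, against 3469, 3440.1 and 3644 at 1, 2 and 4 h), with a gap of 0.833. Psmd6 stood low on the 4 h array (1681, against 1865, 1846 and 1875 at 1, 2 and 6 h), with a gap of 0.860, but its whole range was only 1.12-fold.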

How the results depend on the processing

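Of 431 values recomputed under the alternatives, 372 were rated as kept. For medians and ranges this meant a move of less than the spread over arrays, and for counts a change of at most 1.5 times. The single genes Psmd3, Psme3 and Psmg1 were rated as kept if still at least 2-fold apart. The 372 include values that an alternative left unchanged, as another floor did throughout. The medians of the 43 genes at 2 h and 4 h against 1 h stayed below 0 under all 11 alternatives that gave them, from -0.20 to -0.031 and from -0.14 to -0.050. Some of these, such as another floor or leaving out the array of another hour, could hardly move them. All used the same single arrays, so they do not replace replicates. The core median at 2 h stayed between -0.23 and -0.097. Psmd3 stayed at least 2-fold higher at 2 h, from 1.22 to 1.35 log2. Most alternatives could not change its value, as it has a single probe set well above the floor and the filter. The cause of the changes below was not tested, apart from those that follow from fewer arrays or another threshold.

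The ATPase medians lay near 0 and moved most often. At 2 h, 4 h and 6 h they were 0.0023, 0.018 and -0.056 after quantile normalization, and 0.038, 0.021 and 0.010 against the mean of the other 3 arrays. At 2 h and 6 h they were -0.12 and -0.077 after median centring. At 2 h and 4 h they were -0.012 and -0.097 with the stricter filter at the 60th percentile, and -0.083 and 0.071 with shared or incomplete probe sets left out. At 4 h and 6 h they were 0.031 and 0.030 after averaging every probe set of each gene. Median centring gave -0.20 for the 43 genes and -0.26 for the associated genes at 2 h. Averaging gave -0.064 for the lid at 2 h, -0.050 for all genes and -0.37 for antigen processing at 4 h. It put 1 gene at least 2-fold lower at 4 h and 2 higher at 6 h. Leaving out shared or incomplete probe sets gave -0.015 for the lid, -0.075 for antigen processing and 2 genes at least 2-fold higher at 2 h. At 4 h it gave -0.080 for the associated genes, -0.92 for antigen processing and 1 gene at least 2-fold lower, and at 6 h 0.075 for all genes, 0.069 for the core and -0.14 for antigen processing. Quantile normalization and median centring left 0 genes at least 2-fold higher at 6 h (Psmg1 at 0.96 and 0.97 log2).

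Against the mean of the other 3 arrays, the medians of all genes were -0.031, -0.054 and 0.073 at 2, 4 and 6 h, those of the core were -0.023 at 4 h and 0.10 at 6 h, and Psme3 was at -0.95 at 2 h. At 1.5-fold, 2 genes were higher and 7 lower at 2 h, 1 lower at 4 h, and 2 higher and 1 lower at 6 h. Leaving out each array in turn gave 0 to 32 called slopes over all probe sets, a median slope of the proteasome genes from -0.035 to 0.029 and a median range from 1.24 to 1.33-fold. The lowest value lay at 4 h for 15 to 23 genes and at 6 h for 7 to 8, the highest at 6 h for 13 to 22, and the antigen processing median at 6 h ran from -0.18 to 0.047. Without the 1 h array no difference against it could be had. The slope on log2 hours has another unit, so only its 0 calls were compared. No paired analysis was possible because each hour has 1 array.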

Other observations

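The promoters of proteasome genes held one motif more often than promoters at large. CGGAAG, the core bound by ETS family factors, was present on either strand in 20 of 42 windows of 250 bases before the start (47.6%), where it was present in 13.6% of all 32851 windows. CCAAT, the box bound by NF-Y, was in 15 of 42 (35.7%), where it was in 33.8% of all. These are 2 of the 4 motifs given here, with no test, and GC content was not matched. Another spelling of the antioxidant response element was searched at an earlier stage and its counts are not given, and CGGAAG was singled out after its values were seen. Several of these genes had a match to each of CGGAAG and CCAAT, among them Psma6 and Psmd4. A link between the motifs and the signals was not tested. The promoter of the activator Psme3 is shown as an example that held both, with the CCAAT box on the other strand (RefSeq, build GRCm38.p6, 5′ to 3′, matches in capitals).
Psme3 promoter (chr11:101315963-101316212, + strand): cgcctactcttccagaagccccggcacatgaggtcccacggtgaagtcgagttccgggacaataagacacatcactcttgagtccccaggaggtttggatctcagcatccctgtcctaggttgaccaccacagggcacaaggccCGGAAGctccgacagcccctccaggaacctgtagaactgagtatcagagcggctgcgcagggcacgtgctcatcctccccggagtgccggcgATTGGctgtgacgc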
